A study of Canis lupus familiaris with 36 samples.

Results

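The 156 genes described here were lower with the combination of ibrutinib and AS-605240 than with DMSO at 24, 48 and 72 h in CLBL-1, a cell line of canine diffuse large B-cell lymphoma (DLBCL). They were selected on the read counts themselves, out of 30424 genes in the table. Counts were divided by the total reads of their library and scaled to one common total (CPM), and averaged over the libraries of a group, and the log2 ratio of 2 groups was taken as log2((mean CPM of the first + 0.5)/(mean CPM of the second + 0.5)). A gene was chosen when its mean was at least 2 CPM, its log2 ratio of the combination to DMSO was -0.8 or lower at every time, and its log2 ratio of DMSO at 72 h to DMSO at 24 h was within 0.8 of 0. Of 10037 genes of at least 2 CPM, 9231 kept within the DMSO limit, 157 met all limits, and 1 of these was left out by its identifier. The difference between the combination and DMSO is therefore what selected the genes, and it is given below as a description without a test.

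CLBL-1 cells of passages p121, p126 and p128, named replicates 1, 2 and 3, were treated with 1 µM ibrutinib (Ibr), with 5 µM AS-605240 (AS), with both (Ibr + AS) or with DMSO, the solvent of both inhibitors. Each treatment was applied for 24, 48 and 72 h, which gave 12 groups of 3 libraries from poly-A RNA. According to the methods of the study, DMSO controls held as much DMSO as the combination, and the DMSO content of the single treatments is not given in the sources used here. The groups model 1 cell line without its tissue. The p-values measure the spread between libraries of this line that remained after the terms for passage and group. In bulk RNA fewer cells with a transcript and less of it per cell cannot be told apart. The library Ibr 72 h replicate 3 was discarded in the study and was left out of the fits here, which leaves 2 libraries in that group.

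Ibrutinib blocks Bruton's tyrosine kinase (BTK), which passes the signal of the B-cell receptor on to calcium and NF-kappaB signalling. AS-605240 blocks phosphoinositide 3-kinase (PI3K), which the study specifies as the gamma isoform, PIK3CG. The lipid product of PI3K brings BTK and AKT to the membrane, so both inhibitors act on signalling tied to the B-cell receptor. PI3K is also activated through other receptors. Signalling through PI3K, AKT and mTOR is also known to promote lipid and sterol synthesis, protein synthesis and growth.

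Total reads on genes ranged from 9941919 to 14703839 per library. The paired B-cell markers were abundant, with 2087.7 to 4738 CPM of DLA-DRA, an MHC class II chain, and 71.0 to 281 CPM of TNFRSF13C, the BAFF receptor. The 3 paired T- and NK-cell markers together did not pass 0.723 CPM in any of the 35 libraries. Of 5 markers of macrophages and monocytes 2 could be paired with an identifier. TREM2 held at most 1 read, whereas LYZ, the lysozyme gene, gave nearly all of a summed level of 68.2 to 115 CPM with DMSO, 114 to 159 CPM with Ibr, 83.6 to 98.3 CPM with AS and 136 to 287 CPM with Ibr + AS. The part of LYZ-expressing cells in the results was not tested. A pair of Ibr + AS libraries stood apart in the genes described here. The median log2 ratio of the 156 genes to the DMSO mean was -1.54 in Ibr + AS 24 h replicate 1, -0.998 in replicate 2 and -1.03 in replicate 3. Without that library 35 of the 156 genes no longer met all limits, and the median log2 ratio at 24 h was -0.997 in place of -1.14. At 72 h the median was -1.44 in replicate 3, beside -0.976 and -1.11 in replicates 1 and 2, and the 50 most abundant genes took 21.9% of its reads beside 18.3 and 19.5%. Without that library 41 of the 156 genes no longer met all limits, and the median log2 ratio at 72 h was -0.987 in place of -1.07.

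Over the 156 genes, the log2 ratio of Ibr + AS to DMSO had medians of -1.14, -1.32 and -1.07 at the 3 times in turn. The most negative values were -3.54, -4.35 and -4.13. In 69 genes the ratio was -1 or lower at every time, and in 6 genes it was -2 or lower at every time. For 86 genes 48 h was the time of the lowest ratio, for 46 genes 72 h and for 24 genes 24 h. Together the 156 genes took 1.06 to 1.34% of the reads of a DMSO library and 0.361 to 0.619% of the reads of an Ibr + AS library. Ibr libraries gave them 0.759 to 1.00% and AS libraries 0.864 to 1.09% over all times. At each time the AS libraries lay below the DMSO libraries. The shares were 0.864 to 0.928% with AS beside 1.06 to 1.11% with DMSO at 24 h. At 48 h they were 0.948 to 0.978% beside 1.21 to 1.29%, and at 72 h 1.04 to 1.09% beside 1.28 to 1.34%. Most of the genes were of low to moderate abundance, with a median of 21.0 CPM beside 37.0 CPM over all genes of at least 2 CPM. A mean of 2 to 5 CPM was found for 26 genes, and 24 genes were at 100 CPM or above.

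**Figure D1:**
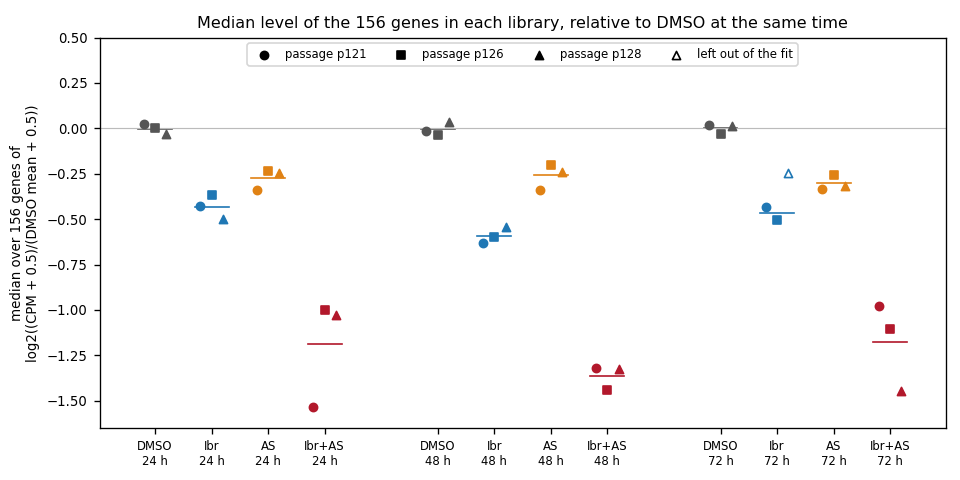
Median over the 156 genes of the log2 ratio of each library to the DMSO mean of the same time (y axis, log2 units), by group (x axis). Symbols mark the passage, lines the mean of the libraries used, and the open triangle is the Ibr 72 h library left out of the fits. Ibr + AS libraries lie between -1.54 and -0.98, Ibr libraries used between -0.63 and -0.37, and AS libraries between -0.34 and -0.20.

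RBFOX2 was just inside the limit of -0.8, with ratios of -0.80, -0.98 and -0.83 at 24, 48 and 72 h, and a gene just outside reached -0.87, -0.93 and -0.80. Of the genes nearest to the limit on abundance, the one inside had a mean of 2.01 CPM and the one outside 1.99 CPM. For the DMSO limit the nearest genes had ratios of 0.798 and 0.801. A further 57 genes were lower with the combination at all times but lay outside the DMSO limit. The choice depended on the division by total reads. Over all times the 50 most abundant genes took 18.3 to 23.6% of the reads of Ibr + AS libraries and 16.0 to 19.4% of those of DMSO libraries. At 72 h the shares of passages p121, p126 and p128 were 18.3, 19.5 and 21.9% with Ibr + AS and 18.4, 19.4 and 18.3% with DMSO. The part of this share in the choice was not tested. When CPM was scaled by TMM factors, which match the bulk of genes between libraries, the median ratio of the 156 genes moved up by 0.12, 0.12 and 0.04 at 24, 48 and 72 h, and 107 genes met all limits.

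Of the 156 genes, 10 could be paired with a symbol, and the other 146 carry an Ensembl identifier only. The level of each named gene is given in CPM per library in the order of passages p121, p126 and p128, and at 72 h the Ibr values are those of passages p121 and p126. CPM are not divided by gene length, so levels are compared between groups and not between genes.

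The most abundant of all 156 genes was SQLE, which encodes squalene epoxidase, an oxygen-dependent and rate-limiting enzyme of sterol synthesis. At 24 h SQLE stood at 794, 679.9 and 715 CPM with DMSO, 509, 505 and 530.4 CPM with Ibr, 540.1, 575 and 532 CPM with AS, and 257, 279 and 246 CPM with Ibr + AS. The SQLE values at 48 h were 974, 1089.5 and 1125 CPM with DMSO, 565, 745 and 579 CPM with Ibr, 723, 728 and 689 CPM with AS, and 319.7, 289 and 282 CPM with Ibr + AS. At 72 h SQLE stood at 1079.5, 1133 and 1020.1 CPM with DMSO, 938 and 846 CPM with Ibr, 1185, 957 and 909.5 CPM with AS, and 418, 366 and 331 CPM with Ibr + AS. With Ibr + AS every library of SQLE lay below every library of the other treatments at the same time. The ratio of mean DMSO to mean Ibr + AS CPM was 2.80, 3.58 and 2.90 at 24, 48 and 72 h, beside 1.42, 1.69 and 1.21 for Ibr and 1.33, 1.49 and 1.06 for AS. At 72 h the AS libraries of SQLE lay on both sides of the DMSO libraries and both Ibr libraries just below them, while the Ibr + AS libraries were far below all others. SQLE did not pass the test between Ibr and AS at any time, with a fitted log2 FC of -0.07 (SE 0.10), -0.14 (SE 0.10) and -0.22 (SE 0.11) at 24, 48 and 72 h and adjusted p of 0.977, 0.751 and 0.436 (edgeR quasi-likelihood test).

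ATP8B1 encodes a flippase that moves phospholipids to the inner leaflet of the plasma membrane. At 24 h ATP8B1 stood at 27.9, 26.7 and 27.4 CPM with DMSO, 16.4, 20.3 and 16.0 CPM with Ibr, 19.95, 22.3 and 21.7 CPM with AS, and 3.60, 7.68 and 12.04 CPM with Ibr + AS. The ATP8B1 values at 48 h were 29.9, 28.0 and 29.4 CPM with DMSO, 14.2, 15.3 and 15.9 CPM with Ibr, 18.7, 25.8 and 20.5 CPM with AS, and 8.73, 6.69 and 9.05 CPM with Ibr + AS. At 72 h ATP8B1 stood at 40.7, 33.3 and 41.8 CPM with DMSO, 13.8 and 11.4 CPM with Ibr, 17.6, 18.7 and 14.6 CPM with AS, and 6.36, 7.44 and 4.21 CPM with Ibr + AS. The libraries were ordered DMSO, AS, Ibr and Ibr + AS from high to low by group means at each time. Ibr and AS libraries overlapped at 24 h only. DMSO was 3.51, 3.57 and 6.43 times Ibr + AS at 24, 48 and 72 h, 1.55, 1.92 and 3.06 times Ibr and 1.28, 1.34 and 2.28 times AS. ATP8B1 was the named gene with the lowest log2 ratio, -2.59 at 72 h. At 24 h its Ibr + AS value was lowest in passage p121, the library of that time that stood apart.

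NEDD4L encodes a ubiquitin ligase that marks membrane channels and signalling proteins for removal. At 24 h NEDD4L stood at 120.9, 111 and 109 CPM with DMSO, 84.9, 83.5 and 75.3 CPM with Ibr, 99.9, 94.95 and 87.3 CPM with AS, and 53.0, 57.4 and 60.0 CPM with Ibr + AS. The NEDD4L values at 48 h were 136, 122 and 134 CPM with DMSO, 87.8, 75.5 and 89.1 CPM with Ibr, 109, 104 and 97.5 CPM with AS, and 70.8, 55.6 and 58.2 CPM with Ibr + AS. At 72 h NEDD4L stood at 163, 142 and 164 CPM with DMSO, 97.9 and 87.9 CPM with Ibr, 107, 108 and 122 CPM with AS, and 80.6, 72.02 and 67.4 CPM with Ibr + AS. The groups did not overlap at any time, in the order DMSO, AS, Ibr and Ibr + AS. The difference from DMSO was moderate, with DMSO at 2.00, 2.12 and 2.13 times Ibr + AS, 1.40, 1.55 and 1.68 times Ibr and 1.21, 1.26 and 1.39 times AS. NEDD4L did not pass the test between Ibr and AS with edgeR, where the log2 FC was -0.19 (SE 0.09), -0.27 (SE 0.09) and -0.28 (SE 0.10) with adjusted p of 0.673, 0.133 and 0.163. With DESeq2 the adjusted p was 0.0228 at 48 h and 0.0348 at 72 h.

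PTK2 and SNTB1 encode proteins at the cell membrane. PTK2 is focal adhesion kinase, a tyrosine kinase that transmits signals of integrins. At 24 h PTK2 stood at 11.3, 10.1 and 10.3 CPM with DMSO, 7.16, 8.18 and 8.76 CPM with Ibr, 8.71, 10.1 and 11.3 CPM with AS, and 2.49, 4.997 and 6.48 CPM with Ibr + AS. The PTK2 values at 48 h were 12.3, 10.4 and 11.4 CPM with DMSO, 6.86, 7.56 and 9.48 CPM with Ibr, 9.74, 10.7 and 12.6 CPM with AS, and 4.24, 3.53 and 4.999 CPM with Ibr + AS. At 72 h PTK2 stood at 9.74, 7.80 and 8.83 CPM with DMSO, 6.21 and 5.89 CPM with Ibr, 7.27, 8.82 and 8.18 CPM with AS, and 2.12, 3.52 and 1.49 CPM with Ibr + AS. PTK2 libraries of AS overlapped those of DMSO at every time, and all Ibr libraries lay below all DMSO libraries. DMSO was 2.27, 2.67 and 3.70 times Ibr + AS, 1.31, 1.43 and 1.45 times Ibr and 1.05, 1.03 and 1.09 times AS at 24, 48 and 72 h. The log2 FC of Ibr against AS was -0.30 (SE 0.17), -0.43 (SE 0.17) and -0.36 (SE 0.20), and none passed the test (edgeR adjusted p 0.855, 0.246 and 0.554).

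SNTB1 encodes a syntrophin, an adaptor protein of the dystrophin complex. At 24 h SNTB1 stood at 7.29, 7.07 and 7.52 CPM with DMSO, 4.005, 5.76 and 5.18 CPM with Ibr, 5.14, 5.46 and 5.72 CPM with AS, and 1.37, 2.09 and 3.32 CPM with Ibr + AS. The SNTB1 values at 48 h were 6.49, 5.98 and 5.33 CPM with DMSO, 4.26, 3.78 and 4.79 CPM with Ibr, 4.41, 5.16 and 5.96 CPM with AS, and 1.30, 1.63 and 1.43 CPM with Ibr + AS. At 72 h SNTB1 stood at 7.27, 7.89 and 9.08 CPM with DMSO, 3.18 and 3.89 CPM with Ibr, 2.85, 4.66 and 3.65 CPM with AS, and 2.36, 2.31 and 1.58 CPM with Ibr + AS. At 72 h both single treatments were well below DMSO, which was 2.28 times Ibr and 2.17 times AS, and 3.88 times Ibr + AS. At 48 h the single treatments were nearer to DMSO, which was 1.39 times Ibr, 1.15 times AS and 4.09 times Ibr + AS. Ibr and AS libraries of SNTB1 overlapped at all times.

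HSF2, RBFOX2 and BEND4 act in the nucleus. HSF2 is a heat shock transcription factor. At 24 h HSF2 stood at 14.7, 14.3 and 13.5 CPM with DMSO, 8.61, 10.8 and 11.5 CPM with Ibr, 10.9, 13.7 and 13.4 CPM with AS, and 3.86, 9.25 and 5.09 CPM with Ibr + AS. The HSF2 values at 48 h were 12.6, 14.0 and 12.5 CPM with DMSO, 9.92, 12.2 and 12.3 CPM with Ibr, 11.99, 14.0 and 12.2 CPM with AS, and 8.21, 5.97 and 7.30 CPM with Ibr + AS. At 72 h HSF2 stood at 22.0, 21.5 and 22.8 CPM with DMSO, 12.7 and 11.0 CPM with Ibr, 12.9, 12.04 and 13.4 CPM with AS, and 10.1, 11.2 and 7.01 CPM with Ibr + AS. At 72 h the DMSO libraries of HSF2 all lay above those of the earlier times, whereas Ibr and AS libraries kept to 11.0 to 13.4 CPM. DMSO was then 1.87 times Ibr, 1.73 times AS and 2.35 times Ibr + AS. The corresponding values at 48 h were 1.14, 1.02 and 1.82. Ibr and Ibr + AS libraries of HSF2 overlapped at 24 and 72 h.

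RBFOX2 is an RNA-binding protein that regulates alternative splicing. At 24 h RBFOX2 stood at 10.4, 9.45 and 10.7 CPM with DMSO, 7.50, 9.66 and 7.67 CPM with Ibr, 7.93, 7.88 and 11.1 CPM with AS, and 4.37, 6.26 and 6.25 CPM with Ibr + AS. The RBFOX2 values at 48 h were 12.6, 12.1 and 12.8 CPM with DMSO, 8.25, 7.38 and 9.19 CPM with Ibr, 9.74, 10.2 and 11.2 CPM with AS, and 5.01, 5.88 and 7.38 CPM with Ibr + AS. At 72 h RBFOX2 stood at 14.6, 13.3 and 14.4 CPM with DMSO, 9.47 and 10.7 CPM with Ibr, 9.58, 13.6 and 10.9 CPM with AS, and 9.58, 7.24 and 6.40 CPM with Ibr + AS. RBFOX2 was the named gene nearest to the limit of the choice, with DMSO at 1.81, 2.06 and 1.82 times Ibr + AS. At 72 h the Ibr + AS libraries overlapped those of both single treatments.

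BEND4 encodes a protein with a BEN domain, a fold that binds DNA. At 24 h BEND4 stood at 17.8, 19.6 and 21.9 CPM with DMSO, 14.997, 17.3 and 13.3 CPM with Ibr, 19.4, 23.3 and 20.3 CPM with AS, and 5.40, 10.3 and 11.5 CPM with Ibr + AS. The BEND4 values at 48 h were 32.1, 24.1 and 29.97 CPM with DMSO, 15.6, 11.95 and 19.4 CPM with Ibr, 20.4, 28.3 and 27.7 CPM with AS, and 10.2, 5.97 and 8.57 CPM with Ibr + AS. At 72 h BEND4 stood at 29.9, 21.2 and 31.9 CPM with DMSO, 28.1 and 25.6 CPM with Ibr, 22.9, 32.6 and 32.9 CPM with AS, and 16.7, 12.7 and 7.36 CPM with Ibr + AS. BEND4 was not lower than DMSO with AS at 24 or 72 h, where DMSO was 0.942 and 0.940 times AS by group means. At 48 h DMSO was 1.83 times Ibr, 1.13 times AS and 3.48 times Ibr + AS, and at 72 h 1.03 times Ibr and 2.26 times Ibr + AS. The log2 FC of Ibr against AS at 48 h was -0.68 (SE 0.24), which did not pass the test (edgeR adjusted p 0.245).

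MDM1 encodes a microtubule-binding protein of centrioles. At 24 h MDM1 stood at 29.8, 31.01 and 30.4 CPM with DMSO, 23.8, 28.4 and 25.6 CPM with Ibr, 23.8, 27.9 and 27.0 CPM with AS, and 11.7, 17.8 and 14.7 CPM with Ibr + AS. The MDM1 values at 48 h were 27.7, 34.96 and 29.8 CPM with DMSO, 19.6, 26.2 and 25.9 CPM with Ibr, 26.0, 31.7 and 30.4 CPM with AS, and 12.6, 12.6 and 15.7 CPM with Ibr + AS. At 72 h MDM1 stood at 39.4, 39.6 and 34.8 CPM with DMSO, 24.9 and 24.4 CPM with Ibr, 34.5, 31.9 and 28.1 CPM with AS, and 17.7, 17.4 and 12.5 CPM with Ibr + AS. With Ibr + AS MDM1 was about as low at each time, while DMSO was 2.06, 2.26 and 2.39 times as high. DMSO was 1.17, 1.29 and 1.54 times Ibr and 1.16, 1.05 and 1.21 times AS. The Ibr and AS libraries were apart at 72 h only, where the log2 FC was -0.36 (SE 0.13) with an edgeR adjusted p of 0.189.

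RGS22 belongs to the regulators of G-protein signalling. At 24 h RGS22 stood at 4.56, 5.24 and 3.48 CPM with DMSO, 4.94, 3.66 and 5.18 CPM with Ibr, 3.40, 3.75 and 5.38 CPM with AS, and 1.03, 2.68 and 2.08 CPM with Ibr + AS. The RGS22 values at 48 h were 3.71, 4.37 and 4.85 CPM with DMSO, 3.15, 4.13 and 4.21 CPM with Ibr, 4.83, 3.22 and 4.36 CPM with AS, and 1.64, 1.27 and 1.67 CPM with Ibr + AS. At 72 h RGS22 stood at 6.17, 6.11 and 6.19 CPM with DMSO, 1.92 and 2.89 CPM with Ibr, 3.13, 3.05 and 4.05 CPM with AS, and 1.73, 2.11 and 1.58 CPM with Ibr + AS. RGS22 was near its DMSO level with either inhibitor alone at 24 and 48 h, where DMSO was 0.964 and 1.12 times Ibr and 1.06 and 1.04 times AS. At 72 h it was lower in every group with an inhibitor, with DMSO at 2.56 times Ibr, 1.80 times AS and 3.41 times Ibr + AS. Ibr and Ibr + AS libraries then overlapped.

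**Figure D2:**
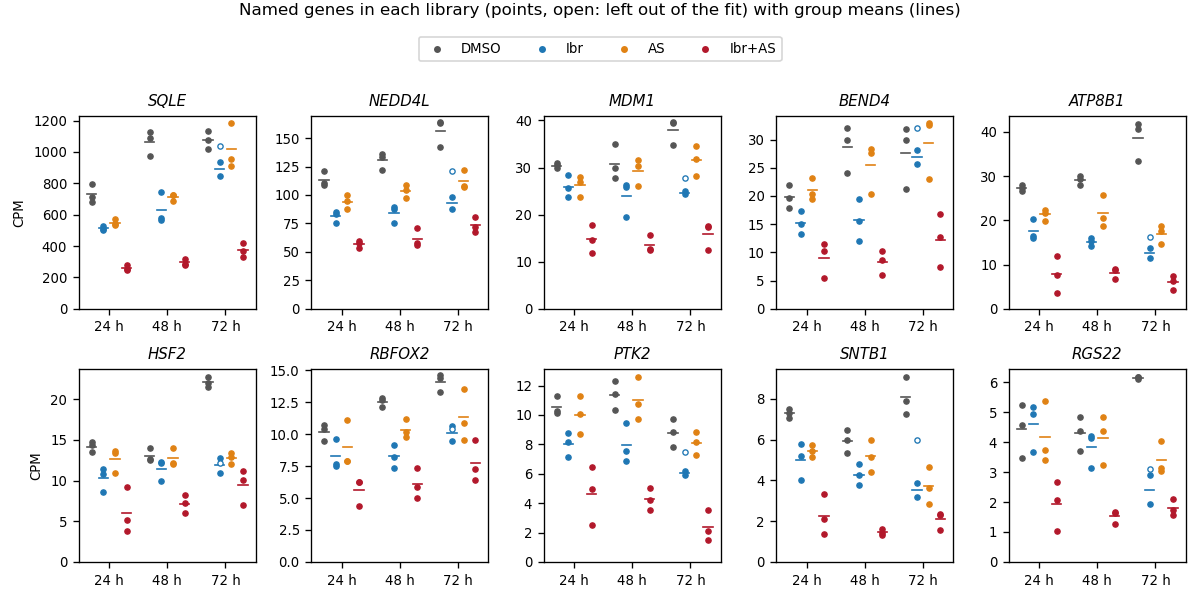
Level of the 10 named genes in each library in CPM (y axis, linear from 0) at 24, 48 and 72 h (x axis), coloured by treatment, with group means as lines. Open points are Ibr 72 h replicate 3, which was left out of the fits. Ibr + AS points are below the DMSO points in every panel, and the place of Ibr and AS between them differs from gene to gene, from the separate groups of NEDD4L to the overlapping ones of RGS22 at 24 and 48 h.

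Of the 146 genes without a symbol, the most abundant was ENSCAFG00000011745. ENSCAFG00000011745 stood, at 24 h, at 715, 755 and 764 CPM with DMSO, 457, 598 and 461 CPM with Ibr, 661, 706 and 677 CPM with AS, and 105, 255 and 357 CPM with Ibr + AS. At 48 h ENSCAFG00000011745 stood at 838, 605 and 732 CPM with DMSO, 409, 343 and 452 CPM with Ibr, 556, 619 and 646 CPM with AS, and 167, 184 and 227 CPM with Ibr + AS. At 72 h ENSCAFG00000011745 stood at 884, 649 and 813 CPM with DMSO, 433 and 405 CPM with Ibr, 510.2, 631 and 555 CPM with AS, and 276, 269 and 151 CPM with Ibr + AS. Ibr libraries lay below AS libraries at each time, and AS libraries below DMSO libraries at 24 and 72 h. At 24 h the Ibr + AS values were far apart, from 105 CPM in passage p121 to 357 CPM in passage p128. DMSO was 3.11, 3.76 and 3.37 times Ibr + AS, 1.47, 1.81 and 1.87 times Ibr and 1.09, 1.19 and 1.38 times AS.

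The lowest mean ratio over the 3 times was that of ENSCAFG00000013904. ENSCAFG00000013904 stood, at 24 h, at 16.7, 26.5 and 22.9 CPM with DMSO, 9.20, 15.7 and 7.97 CPM with Ibr, 12.02, 18.3 and 15.7 CPM with AS, and 0.343, 1.57 and 2.39 CPM with Ibr + AS. At 48 h ENSCAFG00000013904 stood at 23.5, 21.9 and 18.0 CPM with DMSO, 10.9, 15.8 and 9.29 CPM with Ibr, 16.0, 20.2 and 13.8 CPM with AS, and 1.21, 0.723 and 1.03 CPM with Ibr + AS. At 72 h ENSCAFG00000013904 stood at 19.6, 22.5 and 18.9 CPM with DMSO, 13.3 and 13.7 CPM with Ibr, 9.39, 16.0 and 8.42 CPM with AS, and 1.10, 0.604 and 0.701 CPM with Ibr + AS. The Ibr + AS libraries of this gene were near 1 CPM, with DMSO at 15.4, 21.4 and 25.4 times Ibr + AS, while libraries of either inhibitor alone held 7.97 to 20.2 CPM. DMSO was 2.01, 1.76 and 1.51 times Ibr and 1.44, 1.27 and 1.80 times AS. The log2 ratios to DMSO were -3.54, -3.86 and -4.00.

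The single inhibitors were compared with DMSO as a description, since the DMSO libraries were used in the choice of the genes and are shared by all 3 comparisons. The fitted log2 FC of Ibr against DMSO had a median over the 156 genes of -0.40, -0.52 and -0.48 at 24, 48 and 72 h, where the median of all 18670 genes tested was 0.00, 0.00 and -0.04. For AS the medians were -0.24, -0.23 and -0.29, beside 0.01, 0.00 and 0.00 over all genes. The log2 FC was above 0 in 7, 4 and 9 genes with Ibr and in 19, 25 and 19 genes with AS. A log2 FC below -1 with Ibr was found in 5, 22 and 17 of the 156 genes at 24, 48 and 72 h, where 0.239%, 1.21% and 2.58% of the genes of at least 2 CPM were that low. With AS it was found in 4, 5 and 5 genes, where 0.0797%, 0.588% and 1.23% were. Because the selected genes had high DMSO values by choice, these numbers cannot be read against the percentages.

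**Figure D3:**
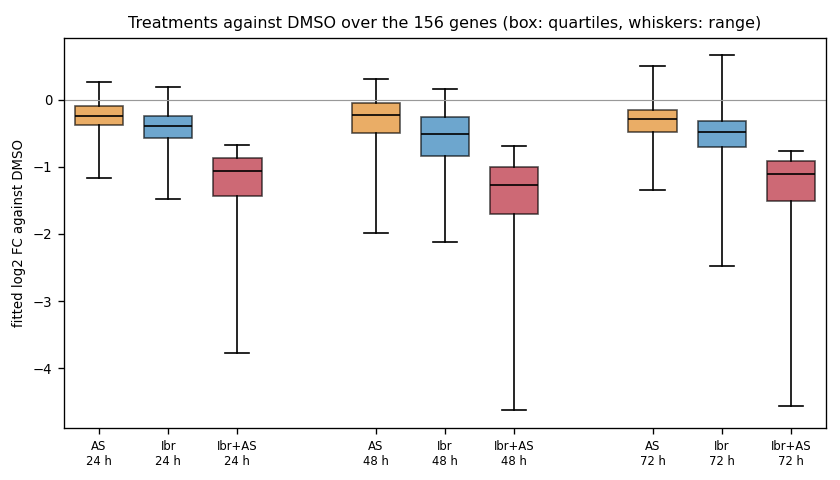
Fitted log2 FC of AS, Ibr and Ibr + AS against DMSO (y axis) over the 156 genes at each time (x axis). Boxes show quartiles, lines in them medians, and whiskers the whole range. Medians are -0.24, -0.40 and -1.07 at 24 h, -0.23, -0.52 and -1.28 at 48 h and -0.29, -0.48 and -1.11 at 72 h, and the 3 treatments share DMSO libraries.

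The combination was the lowest of the 3 treatments in 155, 155 and 154 genes at 24, 48 and 72 h. The order AS above Ibr above Ibr + AS failed in 26, 10 and 28 genes at 24, 48 and 72 h. The log2 FC of the combination was set against the sum of the log2 FCs of both inhibitors. The combination was lower than that sum in 143, 134 and 127 of the 156 genes, and the difference from the sum had a median over all 156 genes of -0.54, -0.52 and -0.34 on the log2 scale. These values were not tested, because low Ibr + AS levels and high DMSO levels selected the genes. Both levels enter the difference from the sum. Among the named genes the combination fell below the sum at every time for SQLE (by 0.53, 0.47 and 1.10), PTK2 (by 0.66, 0.80 and 1.25), BEND4 (by 0.81, 0.70 and 1.20), MDM1 (by 0.56, 0.69 and 0.31) and RBFOX2 (by 0.33, 0.12 and 0.02). For NEDD4L, ATP8B1, HSF2, SNTB1 and RGS22 it was below the sum at 24 and 48 h and above it at 72 h, by 0.19, 0.14, 0.50, 0.38 and 0.47.

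Ibr and AS libraries had no part in the choice beyond the limit on the mean level, so the comparison of Ibr with AS could be tested. Most of the 156 genes had a lower fitted level with Ibr than with AS, and few passed the test. The median log2 FC of Ibr against AS was -0.16, -0.25 and -0.17 at 24, 48 and 72 h, beside 0.00, 0.00 and -0.02 over all 18670 genes tested and -0.01, -0.01 and -0.02 over those of at least 2 CPM. The log2 FC was below 0 in 131 of 156 genes (84.0%) after 24 h, in 147 (94.2%) after 48 h and in 129 (82.7%) after 72 h, whereas 53.1%, 52.7% and 53.5% of the genes of at least 2 CPM were below 0. The genes are not independent of each other, and no test was made over them as a list.

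Most of these differences were small. With edgeR's quasi-likelihood test and a Benjamini-Hochberg adjusted p of at most 0.05 over all genes tested, 3 of the 156 genes (1.92%) were lower with Ibr at 24 h, where 0.187% of all genes were called lower and 0.530% higher. At 48 h 15 genes (9.62%) were called lower, where 0.546% of all genes were called lower and 1.12% higher, and at 72 h 16 genes (10.3%), where 1.10% were called lower and 0.846% higher. Among genes of at least 2 CPM, 0.319%, 0.887% and 1.85% were called lower. None of the 156 genes was called higher with Ibr at any time by edgeR, or by DESeq2, which called 3, 18 and 16 genes lower. At least 1 time was called in 24 genes, exactly 2 times in 6 and all 3 times in 2, and 132 genes were not called, among them the 10 named ones. The log2 FC of the called genes lay between -0.78 and -0.44 at 24 h, between -1.40 and -0.40 at 48 h and between -2.21 and -0.39 at 72 h. With an absolute log2 FC above 1 as well, 0, 4 and 5 genes were called lower with Ibr and none higher, where 0.0536%, 0.150% and 0.273% of all genes tested were called lower and 0.155%, 0.182% and 0.145% higher. Without the passage term the counts were 0, 7 and 12, with Ibr 72 h replicate 3 in the fit they were 0, 12 and 9, and 2 of those 9 were then higher with Ibr.

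The 2 genes called at every time were named after their values had been seen. ENSCAFG00000009400 stood at 43.8, 59.7 and 51.7 CPM with Ibr and 64.8, 74.4 and 74.3 CPM with AS at 24 h, at 45.2, 54.4 and 41.8 CPM with Ibr and 62.0, 76.6 and 77.8 CPM with AS at 48 h, and at 51.4 and 43.7 CPM with Ibr and 65.8, 84.3 and 98.2 CPM with AS at 72 h. Its groups did not overlap, and the log2 FC was -0.44 (SE 0.11), -0.56 (SE 0.11) and -0.73 (SE 0.13), with edgeR adjusted p of 0.0417, 0.00166 and 0.000288. ENSCAFG00000002020 stood at 10.1, 10.7 and 11.6 CPM with Ibr and 11.3, 19.0 and 18.2 CPM with AS at 24 h, at 7.51, 8.09 and 9.19 CPM with Ibr and 9.91, 15.7 and 14.8 CPM with AS at 48 h, and at 6.88 and 8.08 CPM with Ibr and 12.3, 14.2 and 20.1 CPM with AS at 72 h. Here passage p121 had the lowest AS value each time, and the groups overlapped at 24 h. The log2 FC was -0.55 (SE 0.14), -0.66 (SE 0.15) and -0.95 (SE 0.17), with edgeR adjusted p of 0.0281, 0.00414 and 9.29e-05. The further gene called at 24 h was ENSCAFG00000017555, with 5.20, 4.67 and 3.68 CPM with Ibr and 7.23, 7.57 and 9.28 CPM with AS, a log2 FC of -0.78 (SE 0.20) and an edgeR adjusted p of 0.0481.

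In libraries rather than fitted values, every Ibr library lay below every AS library in 50 of the 156 genes (32.1%) at 24 h, in 78 at 48 h and in 63 (40.4%) at 72 h, where 12.1%, 13.7% and 22.0% of the genes of at least 2 CPM did so. At 72 h 2 libraries stand against 3, which makes separation more frequent in any gene. Within each passage the median log2 ratio of Ibr to AS over the 156 genes was -0.13, -0.13 and -0.25 at 24 h for passages p121, p126 and p128, -0.24, -0.33 and -0.32 at 48 h, and -0.12 and -0.25 at 72 h for passages p121 and p126. Over genes of at least 2 CPM the same medians were between -0.09 and 0.01. By the sample numbers in a header line above the column names the libraries belong to 2 runs of 18, which is an inference. All libraries of passage p121 belong to the first and all of p128 to the second, so only p126 is divided. In passage p126 at 48 h Ibr belongs to the first and AS to the second. In all other passages and times Ibr and AS belong to the same run.

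**Figure D4:**
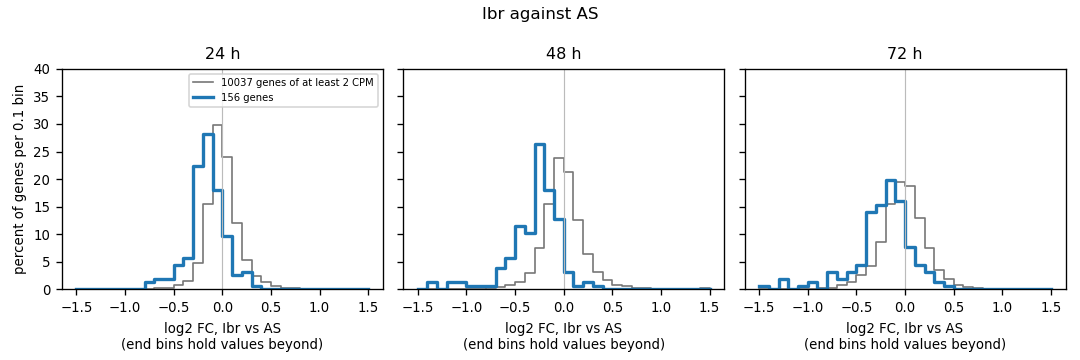
Distribution of the fitted log2 FC of Ibr against AS at 24, 48 and 72 h (x axis, bins of 0.1) as percent of genes (y axis), for the 156 genes (blue) and for all 10037 genes of at least 2 CPM (grey). The blue distribution is shifted to the left at each time, with medians of -0.16, -0.25 and -0.17 beside -0.01, -0.01 and -0.02.

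The second comparison was that of 72 h with 24 h within each inhibitor, whose libraries entered the choice by the mean level only. It was not free of the choice, which removed genes that changed over time in DMSO. From 24 to 72 h in DMSO 425 of 10037 genes of at least 2 CPM had a log2 FC above 1 and 134 below -1. Of the 156 genes 0 did so either way. The shares of other genes given below had no such limit. With AS the 156 genes had a median log2 FC of 0.12 from 24 to 72 h, and with Ibr one of 0.07, while the median of all genes tested was 0.00 and -0.03. With AS 32 genes (20.5%) were higher at 72 h and 3 (1.92%) lower by edgeR at an adjusted p of at most 0.05, where 3.93% of all genes tested were called higher and 2.01% lower. With Ibr 22 genes (14.1%) were higher and 8 (5.13%) lower, where 2.35% were called higher and 2.12% lower. Among genes of at least 2 CPM, 6.60% were called higher and 3.44% lower with AS, and 4.06% higher and 3.69% lower with Ibr. With an absolute log2 FC above 1 as well, 5 genes were higher and 2 lower with Ibr, where 0.589% of all genes tested were higher and 0.370% lower, and 1 was higher and 1 lower with AS, where 0.948% were higher and 0.236% lower. The called rises lay between 0.33 and 1.13 with AS and between 0.38 and 1.16 with Ibr on the log2 scale. The genes called higher shared 18 members, which are 81.8% of those of Ibr and 56.3% of those of AS, and over genes of at least 2 CPM the shared part was 62.3% and 38.4%. Both time courses come from the same passages, and the genes also had a median log2 FC of 0.23 from 24 to 72 h with DMSO, a comparison that the choice limited.

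SQLE was among the genes that rose in both. It was higher at 72 h than at 24 h by a log2 FC of 0.73 (SE 0.11, edgeR adjusted p 3.63e-07) with Ibr and 0.87 (SE 0.10, edgeR adjusted p 9.43e-12) with AS, with every library at 72 h above every library at 24 h, and its log2 ratio in DMSO was 0.56. RGS22 fell with Ibr, by 0.94 on the log2 scale (SE 0.27, edgeR adjusted p 0.0215), and with AS the value was -0.30 (SE 0.22, edgeR adjusted p 0.628). The other 8 named genes did not pass the test in either time course. BEND4 had a log2 FC of 0.81 (SE 0.26) with Ibr and 0.47 (SE 0.23) with AS, and SNTB1 one of -0.50 (SE 0.23) and -0.56 (SE 0.20).

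**Figure D5:**
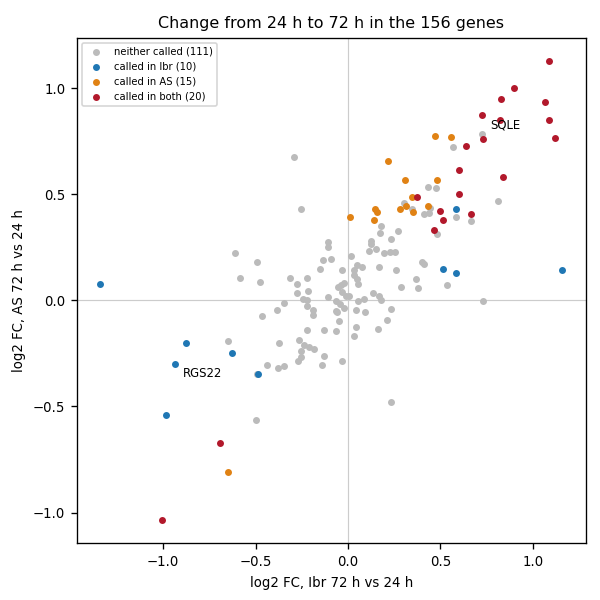
Fitted log2 FC from 24 to 72 h with Ibr (x axis) and with AS (y axis) for the 156 genes, coloured by whether edgeR called the change in Ibr, in AS, in both or in neither. In all, 20 genes were called in both, 18 of them higher and 2 lower at 72 h, and SQLE is among those that were higher.

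Whether the difference between Ibr and AS changed from 24 to 72 h was tested as a contrast of the same fit. No gene of the 156 passed (edgeR, adjusted p of at most 0.05), 16 had an unadjusted p under 0.05, and DESeq2 gave 0 and 11. Over all genes tested 0.0750% passed. The median of this contrast over the 156 genes was -0.06.

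Genes of related pathways were counted for Ibr + AS against DMSO at each time, the contrast that the choice used. Of the 10 named genes, SQLE and PTK2 were in these lists, and whether any of the 146 genes without a symbol belonged to one could not be checked. Genes that met all limits of the choice were left out of the counts, because the choice fixed their outcome. A gene was counted as lower or higher when Ibr + AS and DMSO differed by an absolute log2 FC above 1 at an edgeR adjusted p of at most 0.05. Of all genes tested 2.09%, 2.82% and 4.30% were lower and 6.16%, 4.86% and 3.23% higher by this limit at 24, 48 and 72 h. Among 13 such genes of sterol and lipid metabolism, beside SQLE, 0, 1 and 1 were lower and 3, 2 and 0 higher. The lower one was ACAT2, a thiolase at the start of the sterol route, with -0.99 (SE 0.09), -1.90 (SE 0.10) and -1.70 (SE 0.09). ACAT2 met the limits on the combination but not that on DMSO, where its log2 ratio of 72 h to 24 h was 1.14. SREBF2, the transcription factor of sterol synthesis genes, was lower by less, with -0.28, -0.61 and -0.43. Among 20 genes of the actin cytoskeleton and adhesion, beside PTK2 and AKAP12, which the choice left out by its identifier, none was lower and 1, 1 and 3 were higher.

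Of 20 paired genes of the B-cell receptor and PI3K-AKT-mTOR route (of 41 listed) 0, 0 and 1 were lower and 3, 3 and 2 higher at 24, 48 and 72 h. Of 22 lymphocyte transcription factors and survival genes 1, 2 and 8 were lower and 3, 3 and 1 higher. Of 27 genes of the cell cycle and DNA replication 0, 2 and 1 were lower and none higher by this limit. Without the limit on the fold 20, 18 and 10 of them were lower and 2, 2 and 3 higher. Of all genes tested 16.9%, 15.3% and 14.5% were then lower and 17.1%, 15.4% and 14.1% higher. Of the genes of at least 2 CPM, as most listed genes were, 30.1%, 26.6% and 23.2% were lower and 25.5%, 23.9% and 23.4% higher. The same shares stand beside the counts without that limit in the other lists below. Of 16 genes of amino acid supply and tRNA charging 0, 1 and 1 were lower and none higher. Of 21 genes of the ribosome and its assembly 1, 0 and 0 were lower and 0, 0 and 1 higher, and of 8 genes of antigen presentation none was lower or higher. Without the limit on the fold, 7, 9 and 8 amino acid genes were lower and 1, 1 and 2 higher. Ribosome genes then gave 6, 5 and 1 lower and 11, 9 and 4 higher. Antigen presentation genes gave 1, 1 and 4 lower and 6, 5 and 1 higher. Genes of the B-cell receptor and PI3K-AKT-mTOR route gave 2, 1 and 4 lower and 5, 5 and 7 higher. Lymphocyte transcription factors and survival genes gave 5, 5 and 9 lower and 8, 7 and 6 higher. Sterol and lipid genes without SQLE gave 3, 2 and 3 lower and 8, 6 and 4 higher, and actin and adhesion genes 0, 2 and 4 lower and 6, 7 and 11 higher. With the median taken over each list, cell cycle genes had a log2 FC of -0.49, -0.46 and -0.15. Paired sterol and lipid genes without SQLE had one of 0.51, 0.23 and 0.10, and SC5D and ACACA were not among them. Over all genes tested the median was 0.03, 0.01 and 0.00. The medians were -0.30, -0.29 and -0.37 for amino acid genes and 0.24, 0.17 and 0.04 for ribosome genes. For antigen presentation they were 0.48, 0.35 and -0.25.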

How the data were processed

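Poly-A RNA of 36 CLBL-1 cultures was sequenced as single-end reads. The authors mapped the reads to CanFam3.1 with STAR 2.7.5a and deposited raw counts per Ensembl gene without normalization. Which strand column of STAR was kept is not given in the sources used here, so overlapping and antisense genes, and genes with near-identical copies, are uncertain. Libraries held 9941919 to 14703839 reads on genes, and that depth limits the precision of genes near 2 CPM. No pair of libraries within a group agreed within sampling noise (chi-square per gene of 2.00 to 31.8 over 36 pairs).

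The fit was made by edgeR 4.0.16 in R 4.3.3 (TMM factors, robust quasi-likelihood fit, passage and group as terms), and a further one by DESeq2 1.42.0. A gene was tested if the 35 libraries together gave it 2 reads or more (18670 genes), with Benjamini-Hochberg adjustment over all of them. The labels tie each replicate number to a passage. Same-numbered libraries of different groups correlated in their deviations from group means with a median r of 0.10 (187 pairs, 97 of them above 0.1) and others with a median r of -0.05. One public label gives DMSO 24 h replicate 3 different passages in 2 fields, and p128 was used. The procedure was tested on simulated counts, where false calls made up a larger share of edgeR's calls than its adjusted p limit allows but not of DESeq2's, so edgeR calls near the limit are less certain than their adjusted p states. SE is the log2 FC divided by the square root of F.

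The selected genes, gene lists and tests were chosen with earlier results of these data known. Lists are described by counts and medians alone. The supplementary tables, as far as given, pair 1059 identifiers with a symbol (open-reading-frame names not counted), and the RefSeq table of the assembly UU_Cfam_GSD_1.0 at hand holds 43286 genes and 0 Ensembl identifiers. Named are all selected genes with a symbol, the most abundant one without, and the one with the lowest mean ratio. No sequence or genome position is given, because no sequence of this build was used here. Alternatives were DESeq2, RLE factors in place of TMM, the filterByExpr filter, the fit of all 36 libraries, the fit without passage, each replicate left out, and a limit on the fold. For the choice they were TMM-scaled CPM, a pseudocount of 1 CPM, minimum means of 1 and 5 CPM, all libraries and each replicate left out. The sequencing run as a further term and the choice without Ibr + AS 24 h replicate 1 or 72 h replicate 3 were added after the data had been seen.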

Additional observations from a re-analysis of the deposited data

How the results depend on the processing

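The number of selected genes stayed within 1.5 times 156 under every alternative, from 107 with TMM-scaled CPM to 181 without replicate 2, but 28 to 52 of the 156 no longer met the limits when 1 replicate was left out. For Ibr against AS, called genes were 0 to 5 at 24 h, 11 to 32 at 48 h and 8 to 17 at 72 h with 1 replicate left out, where 3, 15 and 16 were called with all. Without the replicate block 0 genes were called at 24 h and 7 at 48 h, and no other count moved by over 1.5 times. With filterByExpr 1 gene was called at 24 h, and with all 36 libraries 0 genes at 24 h and 9 at 72 h. With an absolute log2 FC above 1 as well, 0, 4 and 5 genes were called between Ibr and AS. Of all genes tested 0.0536%, 0.150% and 0.273% were then lower with Ibr and 0.155%, 0.182% and 0.145% higher. From 24 to 72 h 7 genes were called with Ibr and 2 with AS. Of all genes tested 0.589% were higher and 0.370% lower with Ibr, and 0.948% higher and 0.236% lower with AS. The choice limited the change over time in DMSO for the 156 genes only. Leaving out 1 replicate gave 25 to 34 genes for Ibr from 24 to 72 h and 26 to 44 for AS, where 30 and 35 were called with all. The sequencing run as a further term, which divides passage p126 only, gave 2, 17 and 14 genes between Ibr and AS and 27 and 34 over time.

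The median log2 FC of the 156 genes against DMSO kept its sign in all alternatives. For Ibr at 72 h it was -0.38 with all 36 libraries.

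For the named genes, 256 of 270 alternative values of Ibr against AS kept their sign and their side of the limit, 5 passed the limit, and 9 changed sign. NEDD4L passed with DESeq2 (-0.26 at 48 h and -0.27 at 72 h), BEND4 at 48 h without replicate 1 (-0.78) or replicate 3 (-0.78), and ATP8B1 at 48 h without replicate 1 (-0.50). The sign changed for MDM1 at 24 h with the run term (-0.00070) and for SNTB1 at 72 h with all 36 libraries (0.25). With 1 replicate left out it changed within ranges of -0.012 to 0.026 for MDM1 at 24 h, -0.30 to 0.069 for BEND4 at 72 h, -0.29 to 0.13 for RBFOX2 at 24 h, -0.22 to 0.0046 and -0.069 to 0.072 for SNTB1 at 24 and 72 h, and -0.025 to 0.28 and -0.32 to 0.21 for RGS22 at 24 and 48 h. None of these 9 values passed the limit before or after, and the cause was not tested.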

Other observations

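Ibr 72 h replicate 3, the library that the study discarded, was nearer to DMSO in the 156 genes than the other Ibr libraries of that time. Its median log2 ratio to the DMSO mean was -0.25, beside -0.43 and -0.50 in replicates 1 and 2. In 117 of the 156 genes it was higher than both other Ibr 72 h libraries, where 34.98% of the genes of at least 2 CPM were. Among the named genes NEDD4L stood at 121.5 CPM in it, beside 97.9 and 87.9 CPM, and SQLE at 1037 CPM, beside 938 and 846 CPM. Against AS of the same passage the median log2 ratio of the 156 genes was 0.06 in this library, and 61 of the 156 genes were below AS, where the other 8 pairs of passage and time had 102 to 143 genes below AS.

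Over the 156 genes, the log2 FC of Ibr against AS had a Pearson's r of 0.51 between 24 and 48 h and 0.47 between 24 and 72 h. Genes share libraries and are not independent, and Ibr and AS libraries come from the same passages at each time, so these values are descriptions.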
